A study of Mus musculus with 18 samples.

Results

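Of the 3217 CLK:BMAL1 sites that the authors deposited for mouse liver, 583 carry the location class TSS (transcription start site), a share of 18.1% (exact 95% interval 16.8 to 19.5%). The members were taken by that class alone, so peak width, order in the list and chromosome played no part in choosing them. Distance to other sites is not independent of the choice, because a class is given by position and close peaks can share it. The other classes were introns (1412 sites), other parts of gene bodies (211 sites), intergenic sites that the class name puts under 10 kb (294 sites, called near intergenic here) and intergenic sites beyond 10 kb (717 sites, called distal intergenic). The sources used here do not state how far from a start site a peak could lie and still be classed as TSS.

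CLK (CLOCK) and BMAL1 are a pair of transcription factors that bind DNA together, typically at short E-box sequences, and drive the daily rhythm of transcription in most mammalian cells, liver cells included. Among their known targets are the Period and Cryptochrome genes, whose proteins in turn repress the pair, so that a feedback loop runs over the day. A site at a transcription start site lies where RNA polymerase begins a gene, whereas sites in introns and between genes can act from a distance as enhancers.

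The series holds 18 libraries from livers of wild-type C57BL/6 mice aged 3 to 6 months and kept in 12 h of light and 12 h of dark. There were 3 libraries in each of 6 groups, marked WT28, WT29 and WT30 in the sample titles: ChIP against CLK on chromatin digested with micrococcal nuclease, the same on sonicated chromatin, and sonicated input without antibody, each at ZT06 and ZT22 (hours after lights on). The titles do not say whether a mark stands for the same animal in every group. The ChIP antibody was a goat polyclonal against CLK. No library enters the values below, because the site table is 1 list for the whole series, with no value per library, no peak height and no replicate; the site identifiers begin with Koike_CLKBMAL1. All statistics are therefore over sites and not over animals, and neither time of day nor kind of chromatin could be compared at TSS sites. The p-values of the class contrasts rest on standard errors clustered by chromosome, so they measure the spread between chromosomes. Positions are in mm9, as the table gives them, and sites are called below by the last part of their identifier (P0001 for Koike_CLKBMAL1_P0001).

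The sites are numbered from 1 to 3217 in the order of the list, and the sources used here do not state what this order ranks. TSS sites were spread over the whole list, from number 1 to number 3214, with somewhat more of them at the low end. Their median number was 1507 (95% interval 1406 to 1643), with quartiles at 686.5 and 2279.5, against a median of 1632.5 (1574 to 1696) over all other sites. Of the 4 contrasts with the other classes, 1 was called (25%): TSS sites had lower numbers than distal intergenic sites, by a mean of -157 places ± 52.9 (SE clustered by chromosome, n = 583 and 717 sites; linear model across all sites, 95% interval -268 to -46.3, adjusted p = 0.018). The medians of these classes were 1507 and 1661. Against introns the mean difference was -106 places (n = 583 and 1412 sites, 95% interval -215 to 3.74, adjusted p = 0.12), against near intergenic sites -88.6 (n = 294, -230 to 52.7, adjusted p = 0.34) and against other gene-body sites -24.8 (n = 211, -207 to 157, adjusted p = 0.85), so these did not pass the test.

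Cut into 10 equal blocks of 321 or 322 sites, the list held the most TSS sites in block 1. There 75 of 322 sites were TSS sites, 23.3% (exact 95% interval 18.8 to 28.3%). The lowest shares were in block 9, with 48 of 322 sites and 14.9% (11.2 to 19.3%), and in block 10, with 49 of 321 and 15.3% (11.5 to 19.7%). The blocks between did not fall steadily: block 4 stood at 16.8% and block 5 at 20.5%. In 1 of the 10 blocks, block 1, the interval left out the share over the whole list. Among the first 10 sites 4 were TSS sites, among the first 100 there were 22 (14.3 to 31.4%), and among the first 400 there were 89, or 22.25% (18.3 to 26.6%), against 17.5% (16.1 to 19.0%) from number 401 on.

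**Figure D1:**
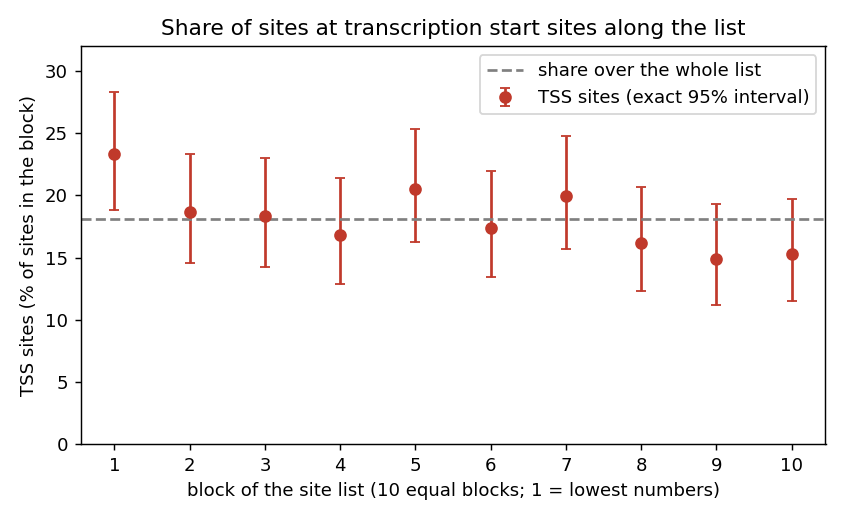
Share of TSS sites (percent of the sites in a block, vertical axis) in 10 equal blocks of the site list (horizontal axis, block 1 with the lowest numbers); points are shares, bars exact 95% intervals, and the dashed line is the share over the whole list, 18.1%. Block 1, at 23.3%, is the only block whose interval lies wholly above the line, and blocks 9 and 10 are the lowest, at 14.9% and 15.3%.

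The 10 TSS sites with the lowest numbers lay on 8 chromosomes and were mostly wider than the median TSS site. P0001 spanned chromosome 7 from 52960041 to 52960760, a width of 719 bp. P0004 was on chromosome 3 (95686051 to 95686501, 450 bp), P0006 on chromosome 5 (149806621 to 149807270, 649 bp) and P0007 on chromosome 11 (98636531 to 98636831, 300 bp). P0013 was on chromosome 1 (93355801 to 93356370, 569 bp), P0021 on chromosome 9 (42280221 to 42280511, 290 bp) and P0027 on chromosome 2 (92274221 to 92274700, 479 bp). P0021 was the narrowest of the 10 and, with P0007, not wider than the class median of 300 bp. P0033 was on chromosome 5 (138696461 to 138696881, 420 bp), P0038 on chromosome 11 (98636841 to 98637181, 340 bp) and P0042 on chromosome 19 (42203511 to 42204170, 659 bp).

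For 6 of these 10 sites another listed site lay within about 1 kb. The sites P0007 and P0038 are neighbours, with 330 bp between their midpoints. The nearest listed site to P0001 was the intron site P0018, 1065 bp away, and the nearest to P0033 was the gene-body site P0322, 265 bp away. P0004 had the TSS site P0299 at 350 bp, and P0013 had the TSS site P1125 at 305 bp. P0021, P0027, P0006 and P0042 stood apart from others by 7.72 kb, 10.4 kb, 16.6 kb and 17.2 kb.

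Peaks at TSS sites had a median width of 300 bp (95% interval 290 to 310 bp), with quartiles of 249 and 370 bp and a range from 130 to 719 bp. The medians of the other classes were 309 bp in introns and in both intergenic classes and 310 bp in other gene-body sites. None of the 4 contrasts was called by the linear model (0%), nor did any have an unadjusted p under 0.05. In the ratio of geometric means, TSS peaks were 0.99 times as wide as intron peaks (n = 583 and 1412 sites, 95% interval 0.96 to 1.02, adjusted p = 0.68) and 1.00 times as wide as distal intergenic peaks (0.96 to 1.03, adjusted p = 0.85). Against near intergenic sites the ratio was 0.99 (n = 294, 0.94 to 1.05, adjusted p = 0.84) and against other gene-body sites 0.97 (0.93 to 1.01, adjusted p = 0.30). Positions lie on a grid of 10 bp, with every start ending in the digit 1 and every end in 0 or 1. Widths can thus also differ by 1 bp, and the differences between the class medians are at most about 1 step of the grid.

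Low numbers went with wide peaks, inside the TSS class as in the whole list. Spearman's rho between number and width was -0.50 over the 583 TSS sites (Pearson's r -0.51) and -0.52 over all 3217 sites, given as a description across sites of 1 list. The median width of TSS peaks went from 399 bp in block 1 (95% interval 369 to 439 bp) to 229 bp in block 10 (219 to 269 bp), and the other sites had the same medians in those blocks, 399 and 229 bp. In 6 of the 10 blocks the TSS median was below that of the other sites, in 2 above and in 2 equal. When the list number was held fixed in the model, TSS peaks were narrower than intron peaks by -0.04 on the log2 scale (n = 583 and 1412 sites, adjusted p = 0.031), a contrast that was not called without it.

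**Figure D2:**
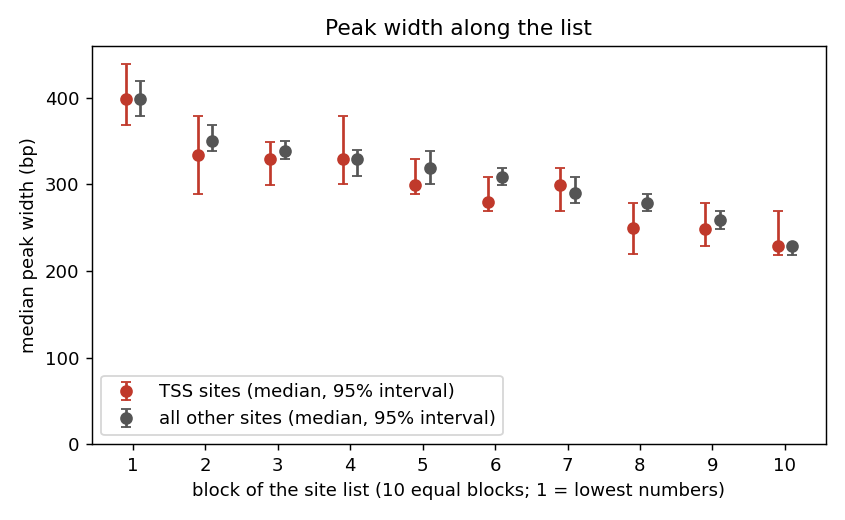
Median peak width (bp, vertical axis) in 10 equal blocks of the site list (horizontal axis), for TSS sites and for all other sites; bars are 95% intervals of the median. Both go from 399 bp in block 1 to 229 bp in block 10, and the intervals of TSS and other sites overlap in all 10 blocks.

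The widest TSS peaks were P0001 at 719 bp, P0224 at 679 bp (chromosome 15, 88692131 to 88692810) and P0042 at 659 bp. Above 500 bp there were 17 TSS peaks among 124 such peaks of the list, 13.7% (exact 95% interval 8.19 to 21.0%), and 11 of the 17 were in block 1. The narrowest were P3214 at 130 bp (chromosome 2, 121238931 to 121239061), P1654 at 139 bp (chromosome 17, 3084431 to 3084570) and P2605 at 150 bp (chromosome 2, 155652571 to 155652721). Up to 200 bp there were 39 TSS peaks among 219, or 17.8% (12.98 to 23.5%). Wide and narrow peaks thus held TSS sites at shares whose intervals include that of the whole list.

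TSS sites were found on all 20 chromosomes of the list, at unequal shares. Chromosome 11 had the most, 64 of 249 sites, or 25.7% (exact 95% interval 20.4 to 31.6%). Chromosome 7 followed with 51 of 226 sites, 22.6% (17.3 to 28.6%). Together they held 19.7% of the TSS sites and 14.8% of all sites. The lowest shares were on chromosome 4, with 26 of 230 sites and 11.3% (7.52 to 16.1%), and on chromosome 14, with 13 of 113 and 11.5% (6.27 to 18.9%). Chromosome X had 2 TSS sites among 10.

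The share differed between chromosomes beyond counting error by the likelihood ratio test (chi-square 39.4, 19 degrees of freedom, p = 0.0039). It remained under 0.05 without any 1 chromosome, with the highest p, 0.039, without chromosome 11 and the next, 0.031, without chromosome 4. On 2 of the 20 chromosomes, 11 and 4, the interval left out the overall share. Sites whose 3 kb regions overlap, of whatever class, were also counted once, as the site with the lowest number and in its class. The likelihood ratio test then gave a chi-square of 31.8 and p = 0.033. The lower list numbers of TSS sites did not hold on every chromosome: their median was below that of the other sites on 11 of 20 and above on 9, and for width the counts were likewise 11 and 9.

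**Figure D3:**
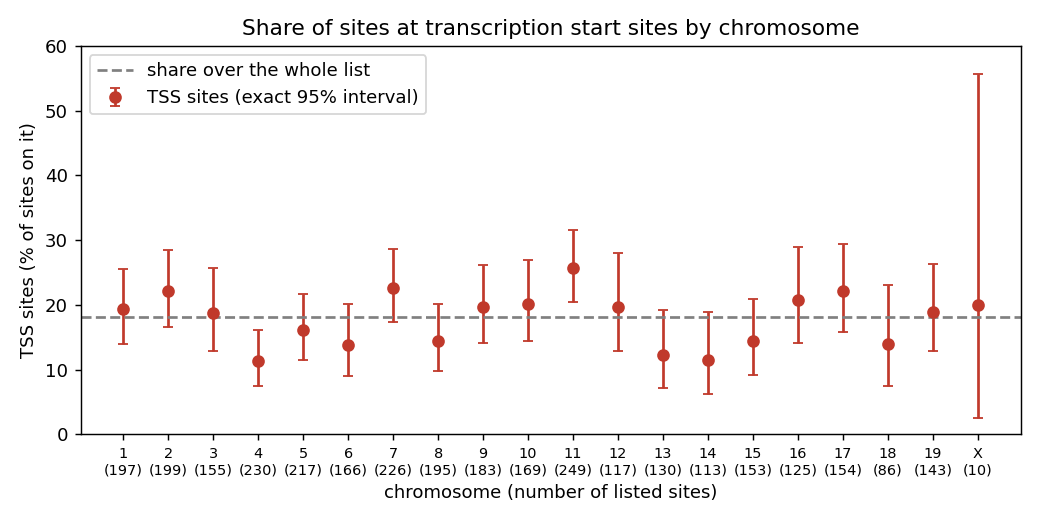
Share of TSS sites (percent of the listed sites on a chromosome, vertical axis) by chromosome (horizontal axis, with the number of listed sites in brackets); points are shares, bars exact 95% intervals, and the dashed line is the overall share of 18.1%. Chromosome 11 lies above the line and chromosome 4 below it with their whole intervals; chromosome X, with 10 sites, has the widest interval.

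The distance from a TSS site to the nearest other TSS site on its chromosome had a median of 521 kb (95% interval 419 to 615 kb), quartiles of 81.8 and 1915 kb and a range from 15 bp to 28.1 Mb. Distances fell into a very close group and a far one. Within 1 kb there was another TSS site for 67 of the 583 members, 11.5% (exact 95% interval 9.02 to 14.4%), and within 3 kb for 71, or 12.2%. Between 3 and 10 kb there were only 4 more, and for the other 508 the nearest TSS site was over 10 kb away. For 205 members, 35.2%, it was over 1 Mb away. The 67 sites within 1 kb formed 35 nearest-neighbour pairs, so members of a pair counted each other. The exact interval treats sites as independent and is too narrow for this.

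Sites of the other classes had fewer TSS sites at such close range. Within 1 kb of a TSS site lay 11 of 1412 intron sites, 0.78% (exact 95% interval 0.39 to 1.39%), 7 of 211 other gene-body sites, 3.32% (1.34 to 6.72%), and 6 of 294 near intergenic sites, 2.04% (0.75 to 4.39%). No distal intergenic site did, 0 of 717, which by its exact interval allows a share of up to 0.51%. The class name puts these sites beyond 10 kb without saying from what, and 5 of the 717 lay within 10 kb of an other gene-body site. The last value can depend on how the classes were made, which was not tested. Within 10 kb the share was 12.3% of other gene-body sites (8.21 to 17.5%), near the 12.9% of TSS sites (10.3 to 15.9%), 8.50% of near intergenic sites (5.58 to 12.3%) and 4.25% of introns (3.26 to 5.44%). Within 100 kb it was 26.8% of TSS sites (23.2 to 30.5%), 26.5% of other gene-body sites (20.7 to 33.0%) and 22.8% of near intergenic sites (18.1 to 28.02%), and it was lower in introns, 15.7% (13.8 to 17.7%), and distal intergenic sites, 15.6% (13.04 to 18.5%), whose intervals lie below that of TSS sites.

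Close neighbours of the own class were found in every class and are not particular to TSS sites. Another site of the own class lay within 1 kb for 11.8% of intron sites (exact 95% interval 10.2 to 13.6%), 11.4% of other gene-body sites (7.46 to 16.5%), 16.7% of near intergenic sites (12.6 to 21.5%) and 12.97% of distal intergenic sites (10.6 to 15.7%), beside the 11.5% of TSS sites. Within 10 kb these shares were 27.4% (25.1 to 29.8%), 17.1% (12.3 to 22.9%), 25.6% (20.7 to 31.0%) and 25.1% (21.97 to 28.4%), against 12.9% of TSS sites (10.3 to 15.9%). Classes differ in size, and no test of these own-class shares was made.

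**Figure D4:**
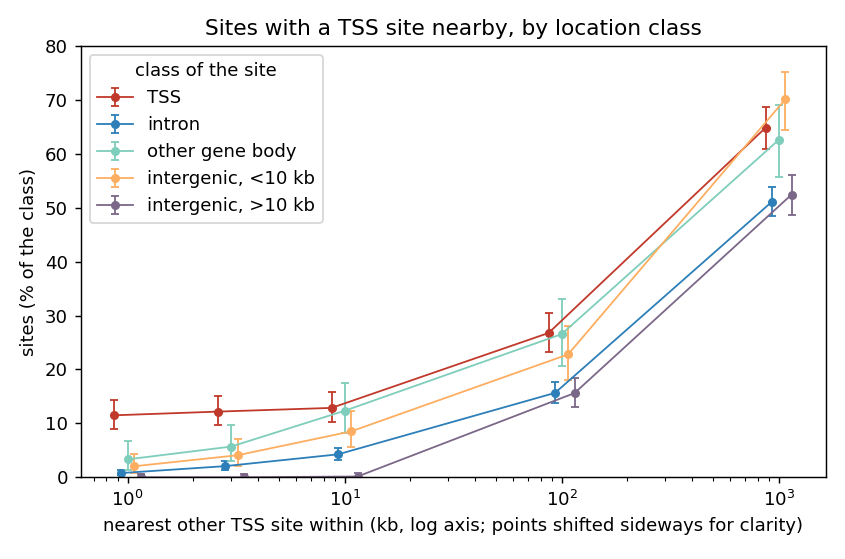
Percent of the sites of each location class (vertical axis) that have another TSS site within 1, 3, 10, 100 or 1000 kb (horizontal axis, log scale; points of different classes are shifted sideways for clarity); bars are exact 95% intervals. The TSS curve starts at 11.5% within 1 kb and is almost flat up to 10 kb, whereas the other classes start at 3.32% or less.

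In the fit, 2 of the 4 contrasts for the distance to the nearest TSS site were called (50%). By the ratio of geometric means the distance from TSS sites was 0.38 times that from intron sites (n = 583 and 1412 sites, 95% interval 0.27 to 0.53; linear model, adjusted p = 6.05e-05), with medians of 521 and 947 kb. It was 0.35 times that from distal intergenic sites (n = 717, 0.23 to 0.52, adjusted p = 0.00013), whose median was 809 kb. This ratio can depend on how the classes were made, since the class name puts distal intergenic sites beyond 10 kb, which was not tested. Against other gene-body sites the ratio was 0.80 (n = 211, 0.45 to 1.39, adjusted p = 0.60) and against near intergenic sites 0.74 (0.50 to 1.10, adjusted p = 0.25), with medians of 551 and 497 kb. For near intergenic sites the ratio and the medians point opposite ways, since their median is below the 521 kb from TSS sites. Both calls were lost with chains of the close group joined: with overlapping 3 kb regions counted once (n = 526 TSS sites) the ratios were 0.76 (adjusted p = 0.068) and 0.75 (adjusted p = 0.076), and the median from TSS sites was 628 kb.

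The close group was made of small runs of TSS peaks. There were 37 nearest-neighbour pairs of TSS sites within 3 kb, with a median of 330 bp between midpoints and a maximum of 1910 bp. In 10 of these pairs the peaks themselves overlapped or, in P2878 and P3037, only met at position 110146101. In 9 pairs their edges were 10 bp apart, 1 step of the grid. The closest pair was P0613 and P0624 on chromosome 5, with 15 bp between midpoints (45841571 to 45841970 and 45841581 to 45841990). Next came P0116 and P0954 on chromosome 1, 135 bp apart (182126051 to 182126531 and 182126311 to 182126541), and P0066 and P1059 on chromosome 11, 140 bp apart (31724481 to 31724891 and 31724441 to 31724651).

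Partners in these pairs could stand far apart in the list. The gap between their numbers had a median of 991 places and ranged from 11, in P0613 and P0624, to 2991. In 27 of the 37 pairs the site with the lower number was also the wider. P0116 was 480 bp wide and P0954 230 bp, and P0066 was 410 bp and P1059 210 bp, whereas P0613 and P0624 were alike at 399 and 409 bp.

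When sites are joined into a chain wherever their 3 kb regions overlap, 113 TSS sites were in a chain, 19.4% (exact 95% interval 16.2 to 22.8%), and 470 stood alone. This share lies between those of distal intergenic sites, 16.9% (14.2 to 19.8%), and near intergenic sites, 26.2% (21.3 to 31.6%), and is close to the 19.8% of introns and 19.0% of other gene-body sites. Chain partners of TSS sites were TSS sites for 71 members, intron sites for 30, near intergenic sites for 12 and other gene-body sites for 9; no member had a distal intergenic partner. TSS sites in chains had a median number of 1296 (95% interval 1059 to 1557) and a median width of 309 bp (290 to 329 bp). Those alone had a median number of 1566 (1447 to 1706) and a median width of 299 bp (289 to 310 bp).

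Of the 76 chains with a TSS site, 31 held TSS sites only, and 3 held 3 TSS sites, the most in any chain. On chromosome 11, P1059, P0066 and P2755 lay between 31724441 and 31725180, with widths of 210, 410 and 199 bp. On chromosome 3, P0004, P0299 and P0668 lay in a row from 95686051 to 95687090, each starting 10 bp after the end of the one before, and the intron site P2277 overlapped the first of them. On chromosome 7, P1464, P2954 and P2427 lay between 27980671 and 27981730, with widths of 399, 160 and 319 bp. The largest chain with a TSS site held 5 sites on chromosome 11: the intron sites P0072, P0010 and P0011 and the TSS sites P0007 and P0038, from 98634141 to 98637181, all 5 among the first 100 numbers. Likewise P0001 was followed on chromosome 7 by the intron sites P0018 and P0005, which end at 52963430.

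At the other end, the most isolated TSS site was P2498 on chromosome 3 (9249891 to 9250080), 28.1 Mb from the next TSS site. The 2 TSS sites of chromosome X, P1842 (71558181 to 71558470) and P3196 (99352551 to 99352750), were 27.8 Mb apart and were each other's nearest. P3196 nevertheless had an intron site 29.9 kb away, whereas P2498 had no listed site nearer than a gene-body site 924 kb away.

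Over the list number, the width and the distances to each of the 5 classes, 13 of the 28 contrasts were called (46.4%). Measured from TSS sites, the nearest intron site lay closest of all classes, at a median of 244 kb (95% interval 206 to 291 kb), followed by TSS sites at 521 kb, distal intergenic sites at 784 kb (677 to 922 kb), near intergenic sites at 1449 kb (1215 to 1733 kb) and other gene-body sites at 2106 kb (1856 to 2777 kb). This order is also that of class size, except that distal intergenic sites outnumber TSS sites. Distances to the same target class are therefore compared below between classes of origin. Such contrasts are not free of how the classes were made, which was not tested. Peaks close together can share a class by position, and the class name puts distal intergenic sites beyond 10 kb.

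TSS sites lay farther from the nearest intron site than intron sites lay from each other, and nearer to it than distal intergenic sites did. Of the 4 contrasts for the nearest intron site 2 were called (50%): the distance from TSS sites was 3.23 times that between intron sites (n = 583 and 1412 sites, 95% interval 2.20 to 4.72, adjusted p = 5.10e-05) and 0.49 times that from distal intergenic sites (0.38 to 0.63, adjusted p = 6.05e-05). The medians were 244 kb from TSS sites, 107 kb between introns and 432 kb from distal intergenic sites. Counting overlapping regions once (n = 526 TSS sites) left both called, with ratios of 1.57 (adjusted p = 0.0035) and 0.61 (adjusted p = 0.00057). Within 10 kb of an intron site lay 54 TSS sites, 9.26% (exact 95% interval 7.03 to 11.9%).

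For the nearest other gene-body site 3 of 4 contrasts were called (75%). From TSS sites it was 0.68 times as far as from introns (n = 583 and 1412 sites, 95% interval 0.53 to 0.88, adjusted p = 0.015), 0.57 times as far as from distal intergenic sites (0.42 to 0.78, adjusted p = 0.0039) and 3.93 times as far as between these gene-body sites (1.77 to 8.73, adjusted p = 0.0060). With overlapping regions counted once (n = 526 TSS sites) the last ratio was 1.41 and was no longer called (adjusted p = 0.34). Within 10 kb of such a site lay 22 TSS sites, 3.77% (exact 95% interval 2.38 to 5.66%).

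For the nearest near intergenic site 3 of 4 contrasts were also called (75%). From TSS sites it was 0.63 times as far as from introns (n = 583 and 1412 sites, 95% interval 0.49 to 0.81, adjusted p = 0.0039), 0.57 times as far as from distal intergenic sites (0.39 to 0.84, adjusted p = 0.016) and 6.24 times as far as between near intergenic sites (2.82 to 13.8, adjusted p = 0.00055). With overlapping regions counted once (n = 526 TSS sites) the last 2 ratios were 0.71 and 1.53 and missed the threshold (adjusted p = 0.063 and 0.055). Within 10 kb of a near intergenic site lay 28 TSS sites, 4.80% (exact 95% interval 3.21 to 6.87%).

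For the nearest distal intergenic site 2 of 4 contrasts were called (50%). From TSS sites it was 0.80 times as far as from introns (n = 583 and 1412 sites, 95% interval 0.68 to 0.96, adjusted p = 0.035), with medians of 784 and 954 kb, and 8.04 times as far as between distal intergenic sites (4.86 to 13.3, adjusted p = 1.35e-06), whose median was 130 kb. The first of these calls was lost when any of 9 chromosomes was left out, with an adjusted p of up to 0.099 without chromosome 11. The second held with overlapping regions counted once (n = 526 TSS sites), at 3.00 (adjusted p = 1.91e-05). A single TSS site lay within 10 kb of a distal intergenic site, at 9.92 kb, whereas distal intergenic sites lay as close as 40 bp to each other. The direction of the second contrast can depend on how the classes were made, which was not tested.

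**Figure D5:**
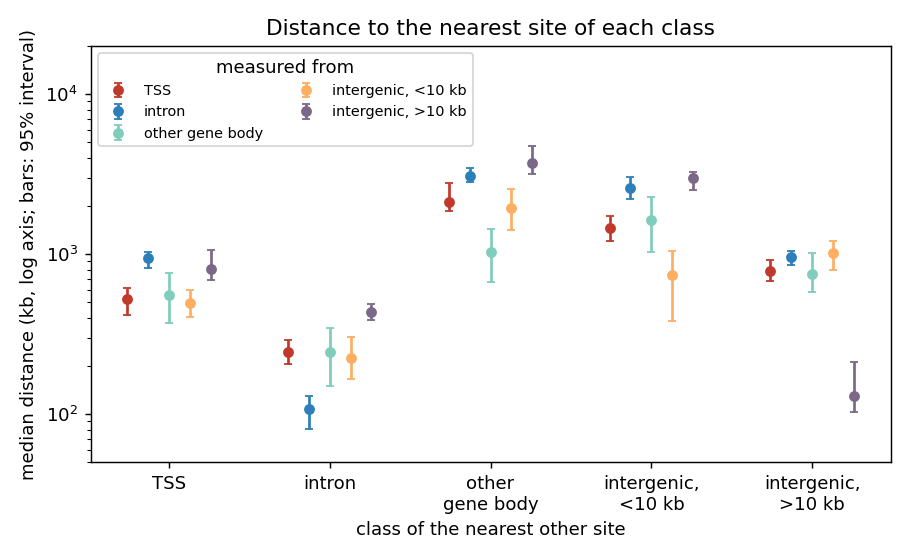
Median distance (kb, vertical log axis) from the sites of each class (colours) to the nearest other site of each class (horizontal axis); bars are 95% intervals of the median. TSS sites lie 521 kb from TSS sites, below introns at 947 kb, distal intergenic sites at 809 kb and other gene-body sites at 551 kb, and above near intergenic sites at 497 kb. They lie 244 kb from intron sites, which are 107 kb from each other.

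The nearest site of any class was another TSS site for 163 of the 583 members, 27.96% (exact 95% interval 24.3 to 31.8%), while TSS sites make up 18.1% of the rest of the list. It was an intron site for 227 members, 38.9% (35.0 to 43.0%, against 43.9% of the rest), and a distal intergenic site for 88, 15.1% (12.3 to 18.3%, against 22.3%). A surplus of the own class was seen in every class and is not particular to TSS sites: relative to the share in the rest of the list it was 1.54-fold for TSS, 1.40-fold for introns, 3.27-fold for other gene-body sites, 3.51-fold for near and 2.46-fold for distal intergenic sites. With overlapping regions counted once the nearest site was a TSS site for 108 of 526 members, 20.5% (17.2 to 24.2%), close to the 18.3% they then make up, and the surplus of 1.12-fold was the smallest of the 5 classes, the next being 1.24-fold in introns.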

How the data were processed

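CLK ChIP and input libraries were made from mouse liver. Of the deposited files, the table of CLK:BMAL1 sites was used. Per the file headers it gives each site's chromosome, peak start and end, 3 kb region and location class. Build mm9, CASAVA 1.7 and Bowtie are named in the submitters' processing notes. The sources used here do not state how sites were called and classed, and the table holds no depth, score or signal. The deposited mean signal profiles pool all classes and were not used here. The reference tables were of another build, so no gene or sequence was assigned to a site, and the planned E-box and gene counts were not run.

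Peak width was taken as end minus start, and distances were taken between midpoints. Class contrasts were linear models across all sites (numpy 2.4.6, scipy 1.17.1): the number, log2 width or log10(distance in bp + 1) on class, with standard errors clustered by chromosome, two-sided, and p-values Benjamini-Hochberg adjusted over 28 contrasts (threshold 0.05). Intervals of 95% are exact binomial (Clopper-Pearson) for shares and order-statistic for medians, and cover sampling of sites only. Where sites count each other as neighbours or share a chain, exact intervals treat them as independent and are too narrow. The chromosome test was a likelihood ratio test. The class fit was tested on simulated log2 widths with independent normal noise and a chromosome effect shared by all classes. The chromosome test was tested on simulated equal shares. The fit was not tested on simulated list numbers or distances, so its p-values for distances, where sites count each other as neighbours, were not checked in this way. The members and lists were chosen with earlier results of these data known. Sites named are the 10 lowest numbers, the 3 widest and narrowest, the 3 closest pairs, chains of 3 or more TSS sites and the 3 most isolated; any other named site was chosen after its values were seen. Alternatives tried are given under the limits.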

Additional observations from a re-analysis of the deposited data

How the results depend on the processing

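No paired analysis was possible because the results come from 1 list of sites with no value per library. The table holds no depth or peak height, and no interval covers errors in calling or classing sites. Of 136 values of the class contrasts under 7 other settings (those named below and width in bp), 123 kept their direction and their side of the threshold. Of the 13 called contrasts, 8 were called under each of these settings that applied, and 12 without any 1 chromosome, a setting chosen after seeing the data.

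The 5 calls lost were lost with overlapping 3 kb regions counted once, which leaves fewer sites and removes the closest neighbours. In log10 distance, TSS minus the other class, these were -0.12 (introns) and -0.13 (distal intergenic) for the nearest TSS site, 0.15 (other gene-body) for the nearest gene-body site, and 0.18 (near) and -0.15 (distal) for the nearest near intergenic site. Under it 3 contrasts not called as reported changed sign, to 0.11 (other gene-body) and 0.12 (near intergenic) for the nearest TSS site and 0.094 (near intergenic) for the nearest intron site. The direction of the near intergenic one for the nearest TSS site is thus unsettled, since other settings given below call it with the opposite sign. Of the 15 contrasts not called, 6 turned sign without some 1 chromosome. Among them, the contrast with other gene-body sites for the nearest distal site did so when any of 8 chromosomes was left out: it was 0.00046 without chromosome X and up to 0.016 without chromosome 14.

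Calls gained were those of the list number against introns with standard errors not clustered (-106, adjusted p = 0.041 over n = 583 and 1412 sites) or with log2 width as a covariate (-125), of width against introns with the list number as a covariate (-0.040 on the log2 scale), and of the nearest TSS site against near intergenic sites by the gap between peak edges (-0.27 in log10). With 1 chromosome left out, the list number against introns was also called without chromosome 2 (-133), and the nearest TSS site against near intergenic sites without chromosome 12 (-0.17). The nearest distal site against introns ranged from -0.11 to -0.074 over chromosomes left out, and was not called without chromosome 1, 5, 7, 9, 11, 12, 16, 18 or 19. The causes of these gains and losses were not tested. With midpoints within 1 kb in place of overlapping regions, 14.8% of TSS sites had a close neighbour.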

Other observations

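Peak ends carried the digit 1 in place of 0 in 27.4% of TSS sites (160 of 583) and in 21.0% of the other sites, while every start ended in 1.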
